A study of Mus musculus with 20 samples.

Results

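The genes described here are 10 genes of muscle protein breakdown: the atrophy ubiquitin ligases Fbxo32 and Trim63, the forkhead transcription factors Foxo1 and Foxo3, the autophagy kinase Ulk1, the autophagosome proteins Map1lc3a, Map1lc3b and Gabarapl1, and the autophagy receptors Sqstm1 and Bnip3. They were chosen by gene symbol, with earlier results of these data known, and all 10 were found among the 20193 genes of each deposited set. Their transcripts were read on Affymetrix arrays in C2C12 cells, a mouse myoblast line that stops dividing and fuses into myotubes when serum is withdrawn. The time-course set holds 12 arrays of untransfected cells in growth medium (Undiff), after a day of differentiation (Day_1) and at day 2 (Day_2), and of day 2 cells that had received 1 of 3 siRNAs against Myolinc, a long noncoding RNA (siMyolinc.1, siMyolinc.2, siMyolinc.3). The scramble set holds 8 arrays, all of cells at day 2, with the same 3 siMyolinc groups and a scramble siRNA (siScr). Every group has 2 arrays, the siRNAs were used at 10 nM with RNAiMax, and all cells are of the single line C2C12. The study asked what the loss of Myolinc does to differentiating muscle cells, and Myolinc itself was not analysed here, so no value for the depth of knockdown is given.

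In muscle, the kinase AKT keeps FOXO factors out of the nucleus while growth signals are present, and when those signals fall FOXO switches on the ubiquitin ligases that mark muscle proteins for the proteasome. Autophagy is the parallel route to the lysosome: a kinase complex starts a membrane, ubiquitin-like proteins of the LC3 and GABARAP family are coupled to it, and receptors bring in cargo such as ubiquitinated proteins or mitochondria. Several genes of both routes are known FOXO targets in mouse muscle, and autophagy also takes part in the remodelling of myoblasts into myotubes.

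Values are log2 expression per transcript cluster, the array's set of probes for a gene. Since probes differ in brightness, no gene's level was set against another gene's, and since the sets were summarised separately, levels were compared only within a set. The siMyolinc arrays of both sets are the same hybridisations: after centring, arrays with the same label correlated across transcript clusters at 0.933 to 0.949 and other pairs at most at 0.289, which leaves 14 distinct arrays. Replicate arrays correlated across genes at 0.996 to 0.999. Of 11 muscle marker genes measured, 6 to 9 lay above the median gene in the siMyolinc groups, and 10 in Day_2 and in siScr, and Des, the muscle filament desmin, averaged 12.51 log2 in Day_2. The endothelial and adipocyte marker lists had at most 1 of 6 genes above the median in the scramble set. A gene was called where its Benjamini-Hochberg adjusted p from limma, over all 20193 genes, was under 0.05, and the value after ± is the standard error. The number of arrays limits the precision: p-values measure only the spread between pairs of arrays.

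Promoter sequence was matched for 8 of the 10 genes in RefSeq (GRCm38.p6), as the 250 bases before the gene's start and the 50 after it. Fbxo32 and Map1lc3a had no matched promoter and were not searched. Both strands were searched for a FOXO core (GTAAACA), the insulin response form (CAAAACA), the core of the TFEB-bound CLEAR element (CACGTG) and a hypoxia response core (ACGTGC), which are found in 3.65%, 6.28%, 7.15% and 5.91% of the 32851 promoters of this length. The promoters of 3 genes are shown because they stand for the cases met: Trim63 held the FOXO core, Bnip3 held CACGTG and ACGTGC, and Gabarapl1, the gene of the set furthest above Undiff on the siMyolinc arrays, held none. Capitals mark the matches.
Trim63, chr4:134314870-134315169, plus strand: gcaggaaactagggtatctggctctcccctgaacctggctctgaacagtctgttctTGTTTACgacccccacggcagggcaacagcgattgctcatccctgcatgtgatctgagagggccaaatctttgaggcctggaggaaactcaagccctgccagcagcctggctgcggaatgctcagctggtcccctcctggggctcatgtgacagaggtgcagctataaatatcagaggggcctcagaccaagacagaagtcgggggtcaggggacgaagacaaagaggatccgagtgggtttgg
Bnip3, chr7:138909457-138909756, minus strand: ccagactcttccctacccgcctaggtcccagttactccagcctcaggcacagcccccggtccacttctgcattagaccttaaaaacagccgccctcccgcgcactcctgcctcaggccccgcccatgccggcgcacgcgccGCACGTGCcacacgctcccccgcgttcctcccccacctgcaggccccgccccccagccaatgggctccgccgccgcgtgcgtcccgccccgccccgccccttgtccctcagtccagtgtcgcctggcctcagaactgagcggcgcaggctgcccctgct
Gabarapl1, chr6:129532942-129533241, plus strand: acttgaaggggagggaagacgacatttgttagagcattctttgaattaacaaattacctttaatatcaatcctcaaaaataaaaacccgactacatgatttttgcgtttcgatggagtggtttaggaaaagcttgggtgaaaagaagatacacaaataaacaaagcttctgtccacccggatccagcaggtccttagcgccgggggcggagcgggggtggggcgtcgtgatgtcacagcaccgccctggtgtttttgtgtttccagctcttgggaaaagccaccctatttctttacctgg
The Trim63 match begins 194 bases upstream of the start and reads as the reverse complement. In Bnip3 a single palindrome 108 bases upstream holds CACGTG, and the hypoxia core overlaps it on both strands, at 109 and 107 bases upstream. None of the other 6 promoters held any of the 4 motifs. A match is a string of letters in a window, and binding was not measured.

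The first comparison asked how these genes change as untransfected myoblasts begin to differentiate. On the first day 8 of the 10 rose, none fell, and Trim63 and Foxo1 were not called. From the first to the second day 2 of the 10 were called higher and 4 lower, near the shares of all genes given below. Fbxo32 and Map1lc3a rose further, while Gabarapl1, Map1lc3b, Sqstm1 and Bnip3 fell. By Day_2, 9 of 10 were above Undiff and Bnip3 was not. Among all genes 48.1% were called in Day_1 against Undiff (27% higher), 53.6% in Day_2 against Day_1 (21.1% higher and 32.4% lower) and 29.9% in Day_2 against Undiff (14.8% higher), so calls as such were common. The median difference of the 10 genes was 0.63 log2 in Day_1 against Undiff, beside 0.11 over all genes. In Day_2 against Undiff it was 0.55, beside -0.03 over all genes, and in Day_2 against Day_1 it was 0.08, beside -0.12.

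**Figure D1:**
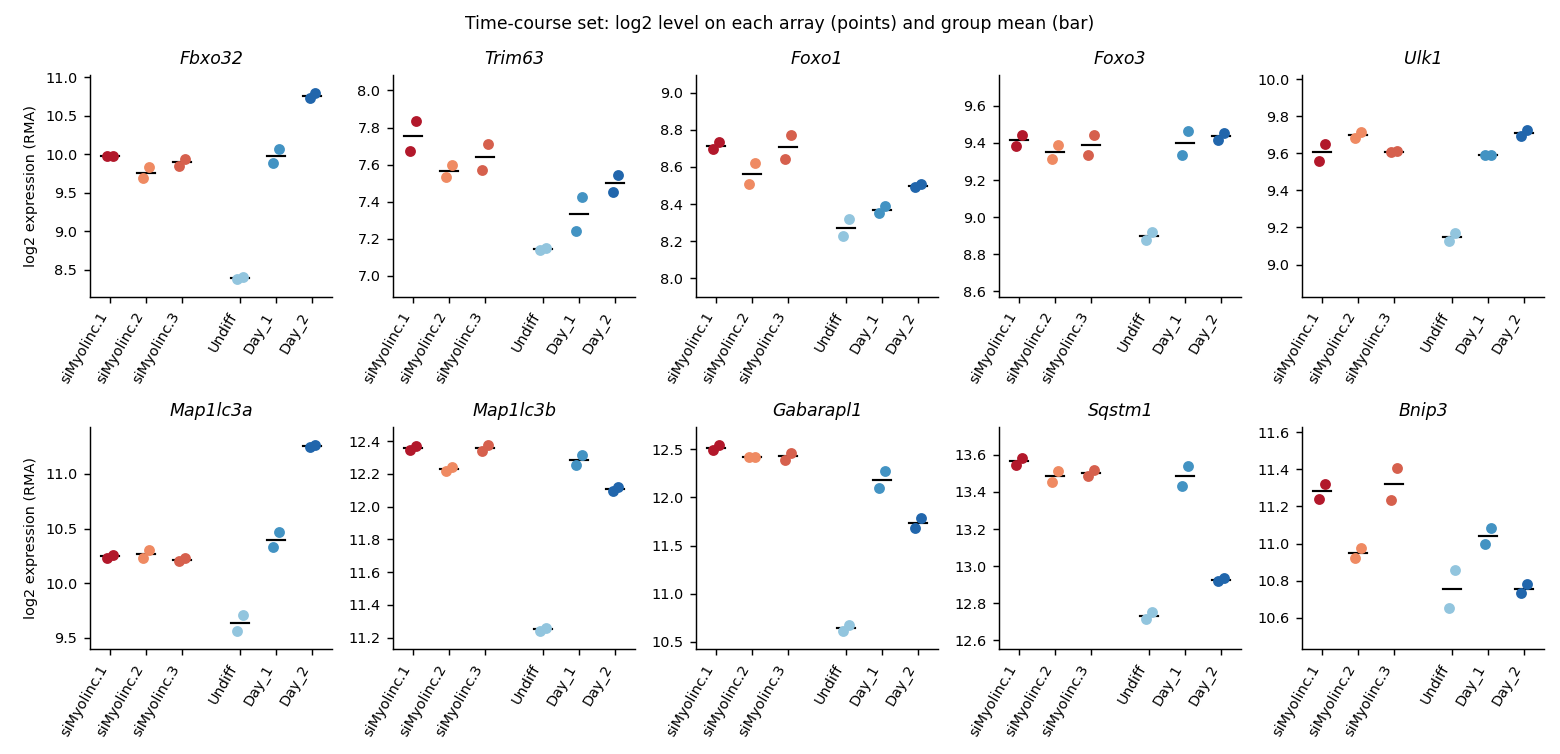
Log2 expression of the 10 genes on each of the 12 arrays of the time-course set (points) with the mean of each group of 2 arrays (bars), and the groups along the x axis. Each panel has its own y axis. Fbxo32 and Map1lc3a climb on both days, whereas Gabarapl1, Map1lc3b and Sqstm1 are highest at Day_1 among the untransfected groups.

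The ubiquitin ligases come first. Fbxo32 (chromosome 15, 58175879 to 58214892, GRCm38.p6), which encodes atrogin-1, read 8.40 and 8.38 log2 in Undiff, 10.07 and 9.88 in Day_1 and 10.73 and 10.79 in Day_2. The 3 groups did not overlap, and no other of the 10 genes moved as far. The rise was 1.59 ± 0.08 log2 on the first day (3.00-fold, limma adjusted p = 3.15e-08) and a further 0.78 ± 0.08 on the second (adjusted p = 1.09e-05), which makes 2.37 ± 0.08 in all (5.17-fold, adjusted p = 5.3e-09). Trim63 (chromosome 4, 134315120 to 134329629), which encodes MuRF1, the ligase of the sarcomere, read 7.14 and 7.15 in Undiff, 7.43 and 7.24 in Day_1 and 7.45 and 7.54 in Day_2. The array medians over all genes ran from 7.54 to 7.68 in this set, and a filter on dim transcript clusters removed Trim63 from it. The Day_2 arrays of Trim63 lay just above the higher Day_1 array. Of its 3 differences the one of Day_2 from Undiff was called, at 0.35 ± 0.08 log2 (1.28-fold, adjusted p = 0.00673), and it was not called without Day_2 replicate 2 (adjusted p = 0.066).

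Of the FOXO factors, Foxo3 moved and Foxo1 barely did. Foxo3 (chromosome 10, 42181845 to 42276695) read 8.88 and 8.92 log2 in Undiff, 9.34 and 9.46 in Day_1 and 9.42 and 9.45 in Day_2. All 4 differentiating arrays lay above both Undiff arrays, and Day_1 and Day_2 overlapped. The rise over Undiff was 0.50 ± 0.07 at Day_1 (adjusted p = 0.000111) and 0.54 ± 0.07 at Day_2 (adjusted p = 9.03e-05). A further transcript cluster of Foxo3, taken from the table of all clusters, had a like rise at Day_2 (0.63 ± 0.06), and there the step from Day_1 to Day_2 was called too (0.19 ± 0.06, adjusted p = 0.0349 over all clusters). Foxo1 (chromosome 3, 52268337 to 52350109) read 8.32 and 8.23 in Undiff, 8.39 and 8.35 in Day_1 and 8.51 and 8.49 in Day_2. The arrays of the 3 groups did not overlap, but the steps were small: 0.10 ± 0.07 on the first day, which was not called, and 0.23 ± 0.07 by Day_2 (adjusted p = 0.0248), a call that was lost without Undiff replicate 2, Day_2 replicate 1 or Day_2 replicate 2 (adjusted p = 0.171, 0.118 and 0.093).

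Ulk1 (chromosome 5, 110784489 to 110810120), the kinase that starts autophagy, read 9.13 and 9.17 log2 in Undiff, 9.59 and 9.59 in Day_1 and 9.72 and 9.69 in Day_2. Its rise came on the first day, with 0.44 ± 0.06 (adjusted p = 8.23e-05), and the further 0.11 ± 0.06 on the second day was not called (adjusted p = 0.111).

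The proteins that coat the autophagosome did not follow a single course. Map1lc3a (chromosome 2, 155276364 to 155278073), an LC3 gene, read 9.71 and 9.56 log2 in Undiff, 10.33 and 10.46 in Day_1 and 11.26 and 11.24 in Day_2. The groups did not overlap and the steps were alike in size, with 0.76 ± 0.07 on the first day (adjusted p = 5.01e-06) and 0.85 ± 0.07 on the second (adjusted p = 2.53e-06). Map1lc3b (chromosome 8, 121590438 to 121598760), the LC3 gene whose protein is the usual marker of autophagosomes, read 11.26 and 11.24 in Undiff, 12.32 and 12.26 in Day_1 and 12.10 and 12.12 in Day_2. Both Day_2 arrays lay below both Day_1 arrays. Map1lc3b rose by 1.04 ± 0.06 on the first day (2.05-fold, adjusted p = 6.13e-08). It then changed by -0.18 ± 0.06 on the second (adjusted p = 0.0191), and that fall was not called without Day_1 replicate 1, Day_2 replicate 1 or Day_2 replicate 2 (adjusted p = 0.092, 0.0933 and 0.0688). A further transcript cluster of Map1lc3b differed by 0.82 ± 0.05 between Day_2 and Undiff, beside 0.86 ± 0.06 for the one used here.

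Gabarapl1 (chromosome 6, 129533192 to 129542331), a GABARAP family member and known FOXO3 target in mouse muscle, read 10.67 and 10.61 log2 in Undiff, 12.27 and 12.10 in Day_1 and 11.79 and 11.68 in Day_2. The Day_1 arrays stood highest and the Undiff arrays lowest, with no overlap. Gabarapl1 rose by 1.55 ± 0.07 on the first day (2.92-fold, adjusted p = 1.89e-08). It changed by -0.45 ± 0.07 on the second (adjusted p = 0.000385), and stayed 1.10 ± 0.07 above Undiff at Day_2 (adjusted p = 6.16e-07).

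The receptors also peaked at Day_1. Sqstm1 (chromosome 11, 50200152 to 50210820) encodes p62, which links ubiquitinated cargo to LC3, and it read 12.72 and 12.75 log2 in Undiff, 13.54 and 13.43 in Day_1 and 12.92 and 12.94 in Day_2. The Day_2 arrays lay closer to Undiff than to Day_1. Sqstm1 rose by 0.75 ± 0.06 on the first day (adjusted p = 1.53e-06) and changed by -0.56 ± 0.06 on the second (adjusted p = 2.17e-05). Its remaining 0.19 ± 0.06 over Undiff at Day_2 was called (adjusted p = 0.0291) but not without any 1 of the 4 arrays concerned (adjusted p = 0.0772 to 0.142). Bnip3 (chromosome 7, 138890836 to 138909506), a mitophagy receptor of the outer mitochondrial membrane that hypoxia and FOXO3 are known to induce, read 10.86 and 10.65 in Undiff, 11.09 and 11.00 in Day_1 and 10.73 and 10.78 in Day_2. The identifier of this Bnip3 cluster lies among clusters of chromosome 14 (9 of 9 mapped neighbours). Whether its probes read the gene's own transcript was not tested. Of these 3 groups only Day_1 stood apart, and Undiff and Day_2 overlapped. The rise of 0.29 ± 0.08 on the first day (adjusted p = 0.0149) was lost without Undiff replicate 2 or Day_1 replicate 1 (adjusted p = 0.117 and 0.0805). The change of -0.29 ± 0.08 on the second day (adjusted p = 0.0147) was lost without Day_1 replicate 1 or Day_2 replicate 1 (adjusted p = 0.0788 and 0.077).

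**Figure D2:**
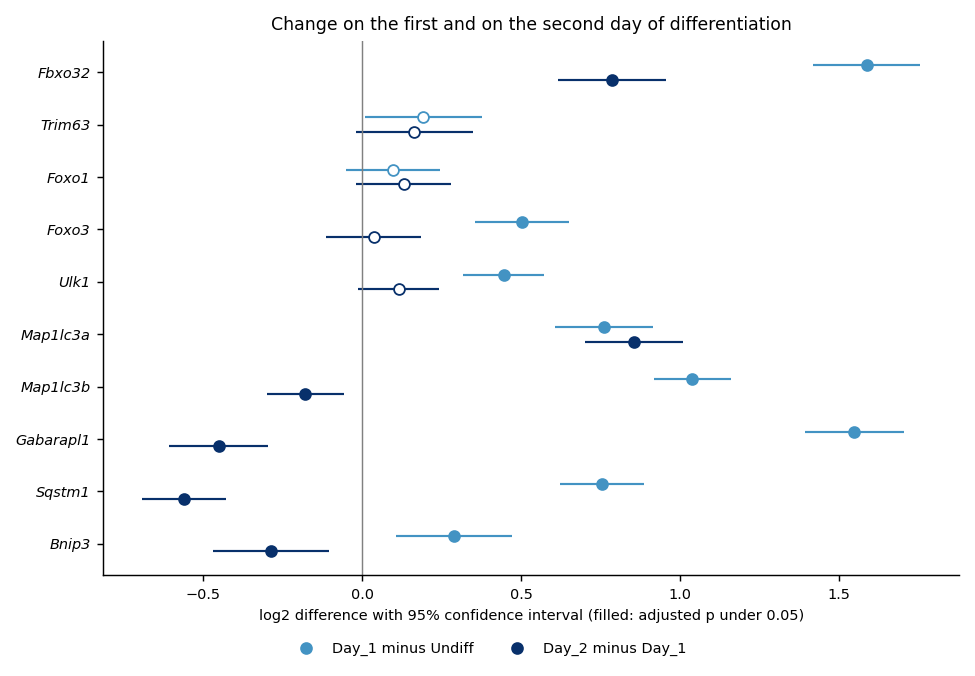
Log2 difference of each gene (x axis, with 95% confidence interval) for Day_1 minus Undiff and Day_2 minus Day_1, with filled points where the adjusted p was under 0.05. Map1lc3a rose by 0.76 and then by 0.85, whereas Sqstm1 rose by 0.75 and then changed by -0.56.

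Among the untransfected groups Day_1 also stood apart in Myod1 and Des, though not in every muscle marker, and the siMyolinc arrays were low in both as well. Myod1, the master regulator of the myoblast, averaged 9.87 log2 in Undiff, 7.71 in Day_1 and 9.62 in Day_2, and Des averaged 12.19, 10.01 and 12.51. In the same order of groups, Cdh15 of the same marker list averaged 10.11, 9.99 and 10.07, and Myog 6.86, 7.65 and 8.51. With siMyolinc.1, siMyolinc.2 and siMyolinc.3 in this set, Myod1 averaged 7.37, 7.54 and 7.24, and Des 8.98, 10.61 and 9.17. For the same siRNAs Cdh15 averaged 9.19, 9.96 and 9.31, and Myog 7.32, 7.69 and 7.22. The summed linear level of the 11 muscle markers was 13591 to 13594 in Undiff, 9275 to 9628 in Day_1 and 19566 to 19700 in Day_2. Of the 11, 8 lay above the median gene in Undiff, and 10 in Day_1 and in Day_2. The 6 adipocyte markers, of which 1 or 2 lay above the median gene, summed to 1742 to 1804 in Undiff, 1223 to 1256 in Day_1 and 1065 to 1087 in Day_2. The part of these differences in the results for the 10 genes was not tested, and a culture or array batch, had Day_1 been one, cannot be told apart from time in medium. In bulk RNA, fewer cells that express a gene and less RNA per cell cannot be told apart either. Centring each array on its 75th percentile moved the median of all genes to 0.26 log2 in Day_1 against Undiff, and 55.5% of all genes were then called higher and 14.8% lower. In Day_2 against Day_1 it moved that median to -0.26, with 14.7% called higher and 54.7% lower. Under that scaling Trim63 and Foxo1 were also called in Day_1 against Undiff (0.34, adjusted p = 0.00546, and 0.25, adjusted p = 0.00736), and the fall of Map1lc3b on the second day was -0.31.

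The second comparison set knockdown against scramble siRNA at day 2, and the 10 genes changed little. Relative to siScr, Bnip3 and Gabarapl1 rose over the mean of the 3 siMyolinc groups, none fell, and the other 8 were not called. Over all genes 9.09% were called in this comparison, 3.64% higher and 5.45% lower, and with arrays centred on the 75th percentile 4.52% were called higher and 3.93% lower. The median difference of the 10 genes was 0.13 log2, beside -0.01 over all genes.

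**Figure D3:**
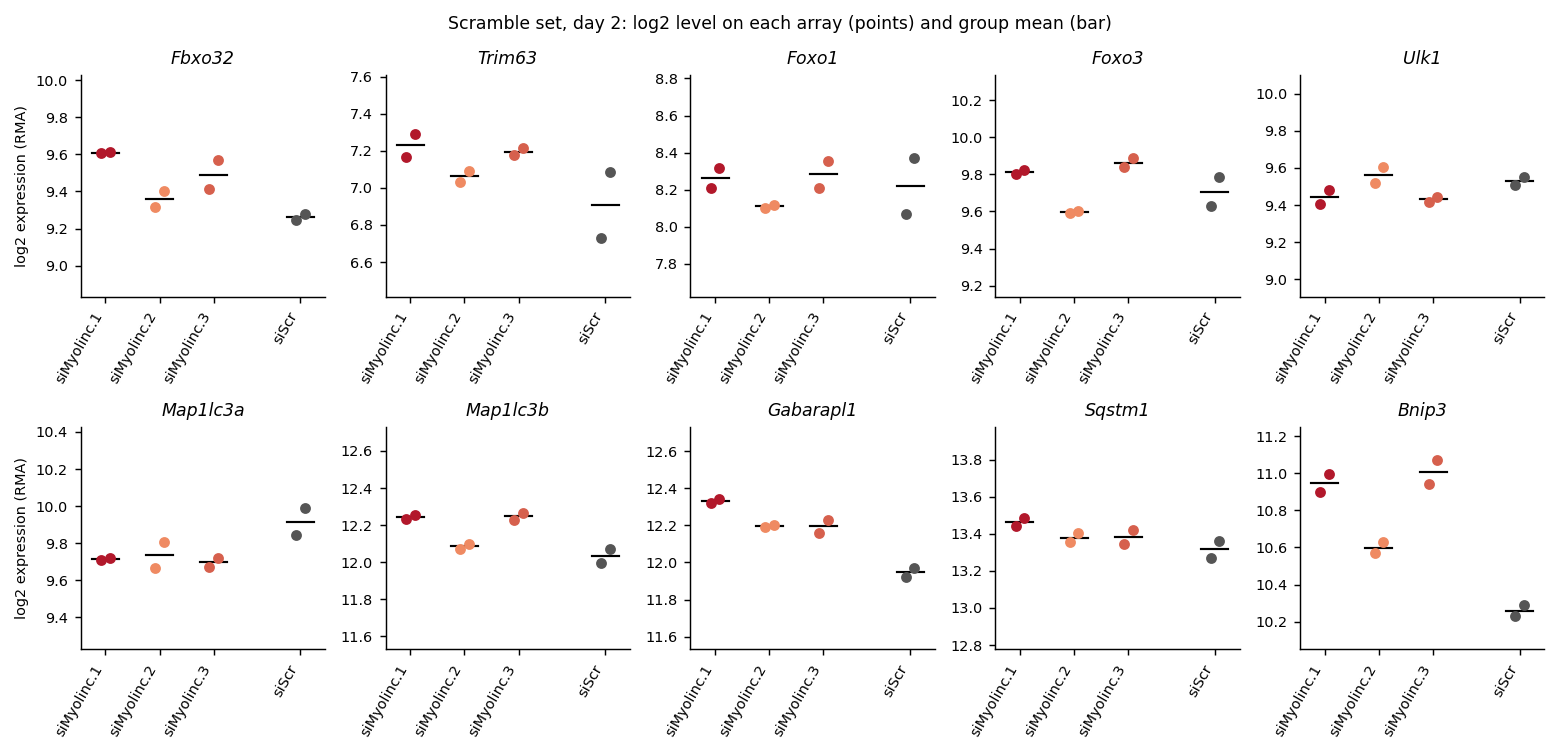
Log2 expression of the 10 genes on each of the 8 arrays of the scramble set (points), with the mean of each group of 2 arrays (bars) and the groups along the x axis. Each panel has its own y axis. Bnip3, Gabarapl1 and Fbxo32 show all 6 siMyolinc arrays above both siScr arrays, and Map1lc3a shows all 6 below them. Fbxo32 and Map1lc3a were not called, and how many of all genes separate in this way was not counted.

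Bnip3 read 10.99 and 10.90 log2 with siMyolinc.1, 10.63 and 10.57 with siMyolinc.2 and 11.07 and 10.94 with siMyolinc.3, against 10.29 and 10.23 with siScr. All 6 siMyolinc arrays lay above both siScr arrays, and the siMyolinc.2 arrays were the lowest of the 6. The difference of the siMyolinc mean from siScr was 0.59 ± 0.06 log2 (1.51-fold, limma adjusted p = 0.000574). By siRNA it was 0.69 ± 0.08 with siMyolinc.1 (adjusted p = 0.000632), 0.34 ± 0.08 with siMyolinc.2 (adjusted p = 0.0879, not called) and 0.75 ± 0.08 with siMyolinc.3 (adjusted p = 0.000524). The siRNAs differed from each other in Bnip3 by the moderated F test (adjusted p = 0.034, where 4.04% of all genes were called). That call was lost in 6 of 14 alternatives, namely over the whole table of transcript clusters (adjusted p = 0.122) and in 5 of the fits without 1 array (adjusted p = 0.0555 to 0.324). The other 9 genes were not called in that test. In pairs, siMyolinc.1 exceeded siMyolinc.2 by 0.35 ± 0.08 (adjusted p = 0.0379) and siMyolinc.3 exceeded siMyolinc.2 by 0.41 ± 0.08 (adjusted p = 0.022). siMyolinc.1 and siMyolinc.3 differed by -0.06 (95% interval -0.24 to 0.11).

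The siRNA with the lowest Bnip3, siMyolinc.2, was also the one with muscle markers nearest to siScr. The summed linear level of the 11 muscle markers was 6028 to 6069 with siMyolinc.1, 9039 to 9179 with siMyolinc.2 and 6160 to 6392 with siMyolinc.3, against 9520 to 10260 with siScr. The macrophage list, with 2 of 6 genes above the median gene, summed to 554 to 631 over the siMyolinc arrays and 472 on both siScr arrays. The part of either in the Bnip3 result was not tested. The Bnip3 transcript cluster has an identifier that lies among clusters of chromosome 14 (9 of 9 mapped neighbours), while the gene is on chromosome 7. Over all clusters checked, 97.7% lay among genes of their own chromosome, and whether these probes read the gene's own transcript was not tested.

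Gabarapl1 read 12.34 and 12.32 log2 with siMyolinc.1, 12.20 and 12.19 with siMyolinc.2 and 12.16 and 12.23 with siMyolinc.3, against 11.97 and 11.92 with siScr. Again all 6 siMyolinc arrays were higher than both siScr arrays. The difference was 0.29 ± 0.06 log2 (1.22-fold, adjusted p = 0.0112). It was not called without siScr replicate 2 (adjusted p = 0.0938), nor when the 6 arrays were fitted as 1 group, so that the spread between siRNAs counts as error (adjusted p = 0.0559). By siRNA it was called with siMyolinc.1 (0.38 ± 0.07, adjusted p = 0.00699) and not with siMyolinc.2 or siMyolinc.3 (0.25 ± 0.07 in each, adjusted p = 0.164 and 0.055). The siMyolinc.1 call was lost without siMyolinc.1 replicate 1 or replicate 2 (adjusted p = 0.0625 and 0.0507).

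Fbxo32 was not called over the siMyolinc mean. It read 9.61 and 9.61 log2 with siMyolinc.1, 9.32 and 9.40 with siMyolinc.2 and 9.57 and 9.41 with siMyolinc.3, against 9.25 and 9.28 with siScr. All 6 siMyolinc arrays were above siScr, by a mean of 0.22 ± 0.06 (adjusted p = 0.0626). The alternatives that brought it under the threshold were centring (adjusted p = 0.0382), an intensity trend and robust prior (adjusted p = 0.0254), the omission of dim clusters (adjusted p = 0.0213) and the omission of siMyolinc.3 replicate 2 (adjusted p = 0.0348). With siMyolinc.1 alone Fbxo32 was called (0.35 ± 0.08, adjusted p = 0.0208), but not over the whole table of transcript clusters (adjusted p = 0.0584), nor without any 1 of the 4 arrays concerned (adjusted p = 0.0736 to 0.118). With siMyolinc.1, 3 of the 10 genes were called, all higher, where 11.3% of all genes were called, 4.15% higher and 7.13% lower. With siMyolinc.2 it was 0 of 10, where 1.35% of all genes were called, 0.718% higher and 0.629% lower. An intensity trend made it 2 of 10, with 513 calls over all genes beside 272. Gabarapl1 and Bnip3 had an unadjusted limma p under 0.05 with siMyolinc.2, and the share of all genes at that threshold was not counted. With siMyolinc.3 the count was 1 of 10, where 9.11% of all genes were called, 3.67% higher and 5.43% lower.

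Map1lc3a pointed the other way. It read 9.71 and 9.72 log2 with siMyolinc.1, 9.81 and 9.67 with siMyolinc.2 and 9.72 and 9.67 with siMyolinc.3, against 9.99 and 9.85 with siScr. All 6 siMyolinc arrays lay below both siScr arrays, while the siMyolinc groups overlapped each other. The difference of -0.20 ± 0.07 was not called (adjusted p = 0.103). It was called with an intensity trend and robust prior (adjusted p = 0.0467) and without dim clusters (adjusted p = 0.0394). Trim63 read 7.03 to 7.29 over the siMyolinc arrays, against 7.09 and 6.73 with siScr. The siScr arrays were further apart than any pair of siMyolinc replicates. The difference of 0.25 ± 0.09 was not called (adjusted p = 0.133), and it rested on which siScr array was used: 0.43 without siScr replicate 1 (adjusted p = 0.0209, called) and 0.08 without siScr replicate 2 (adjusted p = 0.703).

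The remaining 5 genes were not called against siScr in the main fit. Map1lc3b differed by 0.16 ± 0.06 (95% interval 0.03 to 0.29, limma adjusted p = 0.124), and 1 siMyolinc.2 array lay just inside the siScr range. Map1lc3b was called with an intensity trend and robust prior (adjusted p = 0.0234) and without dim clusters (adjusted p = 0.0415). Here it was read at the cluster whose identifier lies among clusters of chromosome 14, and the other cluster gave 0.14. Sqstm1 differed by 0.09 ± 0.06 (95% interval -0.04 to 0.23), Foxo3 by 0.05 ± 0.06 (-0.09 to 0.19), Ulk1 by -0.05 ± 0.06 (-0.18 to 0.08) and Foxo1 by 0.00 ± 0.09 (-0.20 to 0.19). With 2 siScr arrays these intervals do not show that the FOXO factors and Ulk1 stayed the same.

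The third comparison set the same siMyolinc arrays against untransfected Day_2 cells. Here 7 of the 10 genes were called, 5 higher and 2 lower, where 38.1% of all genes were called, 19.3% higher and 18.9% lower. The median of the 10 genes was 0.16 log2, beside 0.05 over all genes. Map1lc3a read 10.20 to 10.30 over the 6 siMyolinc arrays, against 11.26 and 11.24 in Day_2. No siMyolinc array came near Day_2, and Map1lc3a differed by -1.01 ± 0.06 log2 (0.497 of the Day_2 level, adjusted p = 7.48e-08). Fbxo32 read 9.68 to 9.98 with siMyolinc, against 10.73 and 10.79 in Day_2, a difference of -0.88 ± 0.06 (0.542 of the Day_2 level, adjusted p = 5.11e-07).

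Gabarapl1, Sqstm1 and Bnip3 were higher than in Day_2. Gabarapl1 read 12.39 to 12.54 over the siMyolinc arrays, against 11.79 and 11.68 in Day_2, a difference of 0.72 ± 0.06 (adjusted p = 1.33e-06). Sqstm1 read 13.45 to 13.59, against 12.92 and 12.94 in Day_2, and differed by 0.59 ± 0.05 (adjusted p = 1.85e-06). Bnip3 read 10.92 to 11.41, against 10.73 and 10.78 in Day_2, and differed by 0.43 ± 0.07 (adjusted p = 0.000335). In none of these genes did the siMyolinc arrays overlap Day_2. Map1lc3b was 0.21 ± 0.04 higher (adjusted p = 0.0031). Foxo1 was 0.16 ± 0.06 higher (adjusted p = 0.0373), with arrays that overlapped, and it was not called in 9 of 19 alternative settings (adjusted p up to 0.203). Trim63 (0.15), Foxo3 (-0.05) and Ulk1 (-0.07) were not called.

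**Figure D4:**
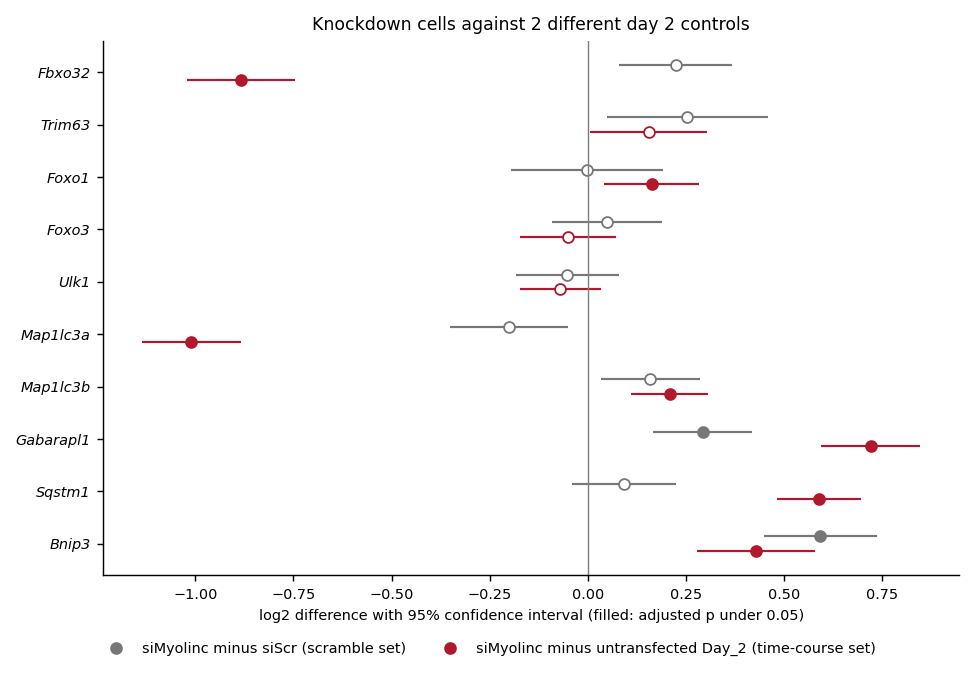
Log2 difference of each gene (x axis, with 95% confidence interval) for the siMyolinc mean minus siScr in the scramble set and minus untransfected Day_2 in the time-course set, with filled points where the adjusted p was under 0.05. The same siMyolinc arrays enter both. Fbxo32 and Map1lc3a lie at -0.88 and -1.01 against Day_2 but at 0.22 and -0.20 against siScr.

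Against the 2 controls the same siMyolinc arrays gave different values for several genes. Fbxo32 was 0.22 above siScr and not called, and -0.88 from untransfected Day_2. Map1lc3a was -0.20 from siScr and not called, and -1.01 from Day_2. Sqstm1 was 0.09 above siScr and not called, and 0.59 above Day_2. Bnip3 and Gabarapl1 were called higher against either control. The difference between these contrasts was not tested, since siScr and untransfected cells were not summarised in 1 set, and transfection, its reagents and any array batch cannot be told apart in the comparison with Day_2. Myod1 averaged 7.37, 7.54 and 7.24 log2 with siMyolinc.1, siMyolinc.2 and siMyolinc.3 in the time-course set, against 9.62 in Day_2. In the scramble set it averaged 7.03, 7.10 and 6.82 with the same siRNAs, against 7.31 with siScr. In that set Myog averaged 6.78, 7.24 and 6.82, against 8.03 with siScr. Des averaged 8.33, 10.18 and 8.51, against 10.33, and Cdh15 8.91, 9.74 and 9.07, against 10.04. The part of these markers in the results was not tested.

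Against Undiff all 10 genes were higher on the siMyolinc arrays, where 40.3% of all genes were called and 20.2% higher (26.2% after centring on the 75th percentile). The differences ran from 0.39 ± 0.06 in Foxo1 to 1.82 ± 0.06 in Gabarapl1 (3.52-fold, adjusted p = 4.33e-10), and included 1.49 ± 0.06 in Fbxo32, 0.60 ± 0.06 in Map1lc3a and 0.43 ± 0.07 in Bnip3. In the authors' deposited table the siMyolinc arrays differed from Day_1 by -0.099 log2 in Fbxo32 (unadjusted p = 0.25757), 0.029 in Sqstm1 (unadjusted p = 0.58801) and 0.029 in Map1lc3b (unadjusted p = 0.62749). The authors' deposited table gives larger differences from Day_1 for Trim63 (0.318, unadjusted p = 0.00272), Foxo1 (0.293, unadjusted p = 0.0014) and Gabarapl1 (0.27, unadjusted p = 0.00135). In the authors' deposited table Map1lc3a was lower than in Day_1 (-0.156, unadjusted p = 0.02042), Bnip3 differed by 0.142 (unadjusted p = 0.2663), Ulk1 by 0.045 (unadjusted p = 0.41378) and Foxo3 by -0.015 (unadjusted p = 0.7902).

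The wider pathways were described with 7 lists that hold none of the 10 genes, of which 122 genes were measured. These lists too were chosen with earlier results of these data known, so their shares are descriptions and not independent support. In Day_1 against Undiff 60 were called higher and 22 lower (49.2% and 18.0%), where 27% of all genes were called higher and 21.1% lower (55.5% and 14.8% after centring). In Day_2 against Undiff 73 were higher and 13 lower (59.8% and 10.7%), where 14.8% of all genes were higher and 15.2% lower. In siMyolinc against siScr 8 were higher and 6 lower. In the lysosome and TFEB list 21 of 22 measured genes rose and none fell at Day_1, with a median of 0.86 log2 beside 0.11 over all genes, and 20 of 22 were higher than Undiff at Day_2. Hexa, a lysosomal hexosaminidase subunit, rose by 1.56 ± 0.07 at Day_1 (adjusted p = 2.32e-08), and Npc1, which exports cholesterol from lysosomes, by 1.29 ± 0.07. At Day_2 Hexa stood 1.39 ± 0.07 above Undiff. On the second day 11 of the 22 fell and 1 rose, where 32.4% of all genes fell and 21.1% rose. After centring those shares were 54.7% and 14.7%.

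The counts of the autophagy lists are small and are given as descriptions beside those shares of all genes. Upstream of the autophagosome, 7 of 14 initiation genes rose and none fell at Day_1, and 10 rose and none fell at Day_2. Atg13, a partner of ULK1, rose by 1.57 ± 0.08 at Day_1 (adjusted p = 3.1e-08), and Atg14, of the lipid kinase complex, by 1.24 ± 0.12 (0.96 ± 0.12 at Day_2). Zfyve1, found where autophagosomes form, stood 0.94 ± 0.06 above Undiff at Day_2. Of 10 conjugation genes 4 rose and none fell at Day_1, and 5 rose and 1 fell at Day_2. Gabarap and Gabarapl2, relatives of Gabarapl1, rose by 0.40 ± 0.07 and 0.36 ± 0.05 at Day_1. At Day_2 Gabarap was 0.43 ± 0.07 and Atg10, a conjugating enzyme, 0.80 ± 0.09 above Undiff. Of 12 receptors 5 rose and 4 fell at Day_1, and 7 rose and 3 fell at Day_2. Calcoco1, a receptor for autophagy of the endoplasmic reticulum, rose by 1.85 ± 0.08 at Day_1 and 1.96 ± 0.08 at Day_2, and the mitophagy kinase Pink1 by 0.98 ± 0.06 and 1.22 ± 0.06.

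The counts of the signalling lists stand beside the same shares of all genes, 27% higher and 21.1% lower at Day_1 (55.5% and 14.8% after centring) and 14.8% and 15.2% at Day_2. Of 24 insulin, AKT and MTOR genes 8 rose and 10 fell at Day_1, and 15 rose and 4 fell at Day_2. Sgk1, a kinase that like AKT can phosphorylate FOXO, changed by -1.76 ± 0.06 at Day_1 and -1.04 ± 0.06 at Day_2. The sestrins, stress proteins that restrain MTOR, were represented by Sesn2 at Day_1 (1.49 ± 0.07) and Sesn1 at Day_2 (1.38 ± 0.09). Of 20 FOXO family and target genes 10 rose and 5 fell at Day_1, and 9 rose and 3 fell at Day_2. Gadd45a, a stress and growth arrest gene, rose by 3.12 ± 0.11 at Day_1 and stood 2.28 ± 0.11 above Undiff at Day_2, while Pdk4, a known FOXO target in muscle that restrains pyruvate use, changed by -2.16 ± 0.07 at Day_1. Pik3ip1, an inhibitor of PI3 kinase, was 1.15 ± 0.09 higher at Day_2. Of 20 other ligases and regulators 5 rose and 3 fell at Day_1, and 7 rose and 2 fell at Day_2. Trim55, the MuRF2 relative of Trim63, rose by 0.57 ± 0.12 and 0.82 ± 0.12 at those times, the F-box gene Fbxo21 changed by -0.30 ± 0.06 at Day_1, and the ubiquitin conjugating enzyme Ube2b was 0.50 ± 0.06 higher at Day_2.

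Against siScr 6.56% of the 122 genes were called higher and 4.92% lower, beside 3.64% and 5.45% of all genes. Of the lysosomal genes 3 rose and none fell, among them Gla, a lysosomal galactosidase (0.97 ± 0.08, adjusted p = 0.000107), and Npc1 (0.26 ± 0.06, adjusted p = 0.0303). Of the ligase genes 3 rose and none fell, among them the ligase Nedd4l (0.39 ± 0.06, adjusted p = 0.00358) and Trim55 (0.30 ± 0.07, adjusted p = 0.0321). Of the insulin, AKT and MTOR genes 1 rose and 4 fell, led by Sesn1 (-0.66 ± 0.09, adjusted p = 0.00212) and Pik3r1, the regulatory subunit of PI3 kinase (-0.58 ± 0.06, adjusted p = 0.000428). Optn, an autophagy receptor, rose by 0.36 ± 0.07 and Pink1 changed by -0.37 ± 0.06. In the FOXO target list only Sod2, the mitochondrial superoxide dismutase, was called (-0.25 ± 0.05, adjusted p = 0.0213), and in the initiation and conjugation lists limma called 0 of 14 and 0 of 10. At an unadjusted p under 0.05, 2 initiation genes were higher and 3 lower, and 1 conjugation gene was higher and 0 lower. How many of all genes passed that looser threshold was not counted, so the shares above do not apply to these counts.

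**Figure D5:**
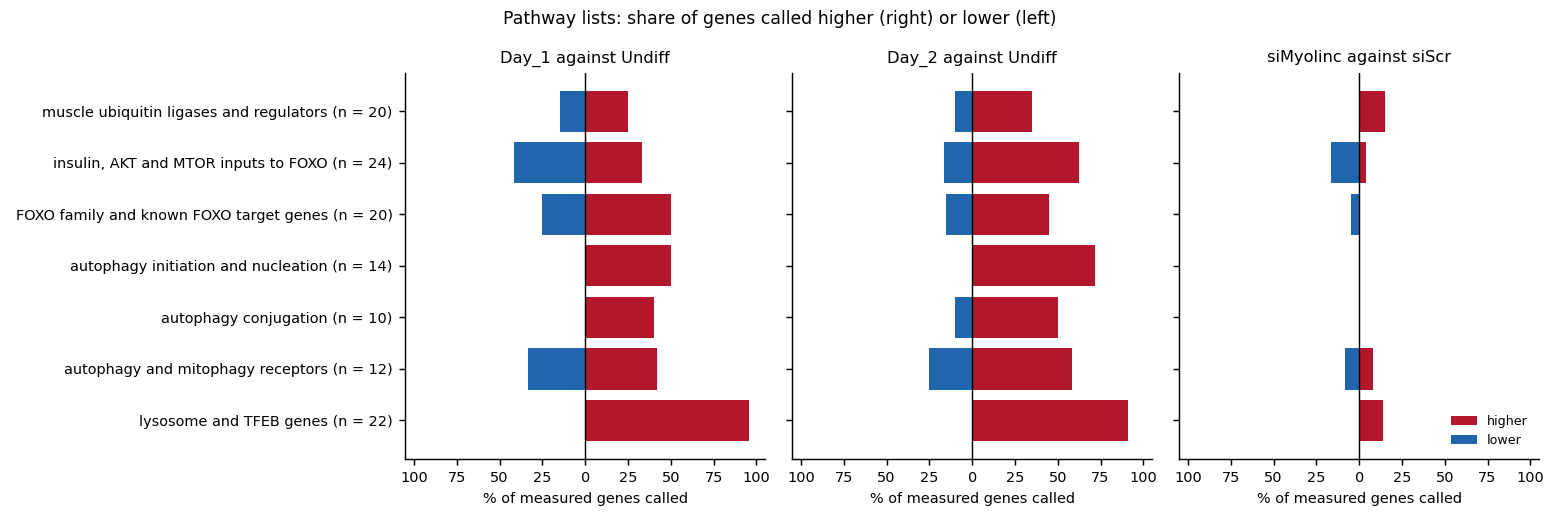
Share of the measured genes of 7 pathway lists (y axis, with the number measured) that were called higher (bars to the right) or lower (bars to the left), in percent of the list, for Day_1 against Undiff, Day_2 against Undiff and siMyolinc against siScr. The lysosome and TFEB list had 21 of 22 genes higher at Day_1, and 3 of 22 higher against siScr.

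Some genes followed the same course as members over the 12 arrays of the time-course set. Among 2013 genes whose group means span at least 1 log2, those most like Fbxo32 were Rgs2 (Pearson r = 0.988), Dyrk1b (0.986) and Ypel2 (0.983). Those most like Ulk1 were Tg (0.983), Adamts5 (0.978) and Tmeff2 (0.978). For Foxo1 they were 2810021G02Rik (0.966), Erlec1 (0.962) and Snord82 (0.961). The genes most like Bnip3 were Mir19b-1 (0.959), D1Ertd448e (0.957) and Mir18 (0.956). Rgs2 averaged 6.49 in Undiff, 8.34 in Day_1, 9.34 in Day_2 and 8.28 with siMyolinc. These r are descriptions over 12 arrays in 6 groups, which share arrays and scaling, and carry no test.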

How the data were processed

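Log2 expression per transcript cluster was made by the authors with RMA. The deposited sheets also hold log2 differences with p-values. Their headers name no adjustment, and these p-values are called unadjusted here for that reason only. RMA and limma are named in the submitters' processing notes, without versions; the genome build is not given in the sources used here. In the deposited column of 1 siMyolinc.3 array 23 cells held day numbers in place of log2 values and were set to missing (none of the 10 genes). No per-sample column was left unused (0).

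Each set was fitted by itself with limma 3.58.1 (R 4.3.3; lmFit, eBayes), 1 coefficient per group, two-sided, with Benjamini-Hochberg adjustment over 20193 genes and a threshold of 0.05. The siMyolinc mean weights 3 siRNAs equally, so its error is the spread between arrays within a siRNA. All adjusted p-values come from these fits. The fits were tested on simulated data. Figures were drawn with matplotlib 3.10.9 in Python 3.11.15, and pandas 2.3.3 was used for the sequences.

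Groups come from the labels, which call the arrays biological replicates. Same-numbered arrays did not deviate together (correlations of -0.11 to 0.22 in the scramble set and -0.17 to 0.24 in the time-course set), so no block was used. Foxo3 and Map1lc3b have a different transcript cluster in each sheet. The whole table of transcript clusters served for the other one, and for the check of neighbours with RefSeq positions.

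The 10 genes and all lists were chosen with earlier results of these data known. Named genes are all 10, the 2 called genes with the largest absolute change per list in 3 comparisons, and the 3 genes most correlated with Fbxo32, Foxo1, Ulk1 and Bnip3. Myod1, Des, Cdh15 and Myog were taken from the marker list. A gene that the rule names is not reported here. From the lists, 14 genes were not analysed here. Alternatives were another scaling, another variance prior, a filter on dim clusters, other arrays or tables in the fit, a replicate block, the 6 siMyolinc arrays as 1 group, and leaving out each replicate.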

Additional observations from a re-analysis of the deposited data

Results flagged for a closer look

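The change of Bnip3 against siScr differed among the 3 siRNAs (moderated F test, limma adjusted p = 0.034). It was 0.69 with siMyolinc.1, 0.34 with siMyolinc.2 and 0.75 with siMyolinc.3, and all 6 siMyolinc arrays lay above both siScr arrays. The identifier of the Bnip3 cluster lies among clusters of chromosome 14, and whether its probes read the chromosome 7 gene was not tested. The difference among siRNAs was not called over the whole table of transcript clusters (adjusted p = 0.122), nor without either siMyolinc.1 array, either siMyolinc.2 array or siMyolinc.3 replicate 1 (adjusted p = 0.0555 to 0.324).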

How the results depend on the processing

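No called difference of the 10 genes changed sign under any alternative run. Among values of single genes, leaving out 1 replicate kept the side of the threshold in 961 cases, lost it in 33 and gained it in 6, and the other settings kept it in 597, lost it in 6 and gained it in 22. Of the 10 genes, 2 were called for the siMyolinc mean against siScr. The count was 5 with an intensity trend and robust prior, 5 without dim transcript clusters, 1 with the 6 siMyolinc arrays as 1 group, and 1 to 3 when a replicate was left out. For siMyolinc.1 (3 called) it was 1 to 3 when a replicate was left out. For siMyolinc.2 (0 called) it was 2 with the intensity trend and 2 without dim clusters. For siMyolinc.3 (1 called) it was 2 after centring on the 75th percentile, 3 with the trend, 4 without dim clusters, and 1 to 2 when a replicate was left out. For the difference among siRNAs (1 called) it was 0 over the whole table of transcript clusters and 0 to 1 when a replicate was left out. Calls over all genes moved as well. For the siMyolinc mean they went from 1836 to 2492 with the intensity trend and to 2460 without dim clusters. As 1 group the 6 arrays gave 410. For siMyolinc.2 they went from 272 to 513 with the trend and to 518 without dim clusters. For siMyolinc.3 they went from 1839 to 2582 with the trend, 2512 without dim clusters and 1739 after centring. All other counts of the 10 genes stayed within 1.5 times. The filter on dim clusters removed Trim63 from the time-course set.

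Whether the replicate numbers pair the arrays is not settled by these data. The fit with the replicate block gave the same counts of called genes, 2 against siScr for the mean, then 3, 0 and 1 for the single siRNAs, 1 for their difference, 8 for Day_1 against Undiff, 6 for Day_2 against Day_1, 9 for Day_2 against Undiff, 7 against Day_2 and 10 against Undiff. Over all genes, 1836 were called for the siMyolinc mean against siScr, 410 with the 6 arrays as 1 group and 825 without siScr replicate 2. The share of calls that were higher moved by over 10 points after centring, to 53.5% beside 40.1% for that comparison, to 78.9% beside 56.2% for Day_1 against Undiff and to 21.2% beside 39.4% for Day_2 against Day_1. With siMyolinc.1 it was 53.9% beside 36.8%, with siMyolinc.3 53.7% beside 40.3%, and against Undiff 60.7% beside 50.0%.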
